A study of Canis lupus familiaris with 10 samples.

Results

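The antiviral interferon-stimulated genes examined here were the members of a list of 10, DDX58, IFIH1, IFIT1, IFIT2, IFIT3, ISG15, MX1, OAS1, OAS2 and OAS3, that were measured on the nCounter Canine IO Panel. The panel table held 7 of these 10 among its 800 genes, namely DDX58, IFIH1, IFIT2, ISG15, MX1, OAS2 and OAS3, whereas IFIT1, IFIT3 and OAS1 had no row in the table and were not analysed here. The rule took the members by name, and the list itself was drawn up with earlier results of these data known. RNA came from formalin-fixed, paraffin-embedded (FFPE) archival blocks of cutaneous histiocytoma (CCH) of dogs, a benign tumour of the skin thought to derive from Langerhans cells, which commonly regresses while lymphocytes enter it. The early CCH group comprised 5 tumours of group 1 of the Cockerell and Slauson histological scheme, and the late CCH group comprised 5 tumours of group 3, the lymphocyte-enriched stage. Each tumour came from a different pet dog, was an unsorted mixture of tumour, immune and skin cells, and had received no experimental treatment that the labels name. The dogs with early CCH were 0.5 to 5 years old (3 males, 1 female, and 1 dog with neither age nor sex given), and those with late CCH were 1.5 to 9 years old (4 males and 1 female). The question of the stage comparison was how the abundance of these transcripts differed between early and late CCH.

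Interferons bind receptors at the cell surface and, through JAK kinases and STAT factors, switch on a set of genes that act against viruses. DDX58 (RIG-I) and IFIH1 (MDA5) sense viral RNA in the cytoplasm and are themselves induced by interferon, whereas IFIT2, ISG15, MX1, OAS2 and OAS3 are effectors of the response. In skin, such genes can be induced in keratinocytes, Langerhans cells and infiltrating leukocytes alike, and in bulk tissue a smaller number of expressing cells and less RNA per cell cannot be told apart. In the RefSeq annotation of the dog assembly UU_Cfam_GSD_1.0, all 7 measured members matched a gene symbol. OAS3 lies between OAS1 and OAS2, IFIT2 lies beside IFIT3, and MX1 lies beside MX2, so that OAS2 and OAS3 are immediate neighbours in the genome.

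Values are the deposited normalized counts, that is, barcode counts scaled by the authors to positive controls and to housekeeping genes. Levels are not compared between genes, because probes of different genes can capture with different efficiency. Sums over marker genes are compared between tumours only, and the strongest probes weigh most in them. Total recovered barcode counts ranged from 484696 to 823763 in early and from 945399 to 1253083 in late CCH (exact two-sided permutation p = 0.00794). The background, taken as the mean plus 2 SD of the negative probes, was 21.8 to 38.2 normalized counts in early and 19.2 to 26.9 in late CCH (exact permutation p = 0.0238). The DV200, the percentage of RNA fragments above a set length, was 64.5 to 71.2 in early and 71.2 to 75.8 in late CCH (exact permutation p = 0.0238). The DV200 label of late 5 differed from the entry in the study's sample sheet, and the label was used here, also where DV200 enters as a covariate. The ratio of the strongest positive controls was 2.09 to 2.17 in early and 2.72 to 2.84 in late CCH, with no overlap (exact permutation p = 0.00794). According to the study's sample sheet, all early tumours were hybridised on one cartridge and all late tumours on another, no RNA extraction batch held both stages, and the late blocks had been archived for longer. Cartridge, extraction and stage therefore cannot be told apart in any comparison given here.

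None of the 7 antiviral genes differed between early and late CCH past the threshold. With limma and Benjamini-Hochberg (BH) adjustment over 761 tested panel genes, 0 of 7 had an adjusted p of at most 0.05, whereas 35.7% of the tested panel genes did. By direction, the panel shares were 27.3% higher in late and 8.41% higher in early CCH. Under the stricter Benjamini-Yekutieli (BY) adjustment combined with a 2-fold change, 0 of 7 passed, against 11.2% of the panel. This panel share came from limma on the deposited values. The paper, which used the platform's own analysis software, reported no nCounter gene past its BY and 2-fold thresholds for this comparison. At an unadjusted p below 0.05, limma gave 1 of the 7, OAS3, against 45.3% of the panel. The early and late values overlapped in all 7 members, whereas 24.6% of the panel genes had no overlap.

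**Figure D1:**
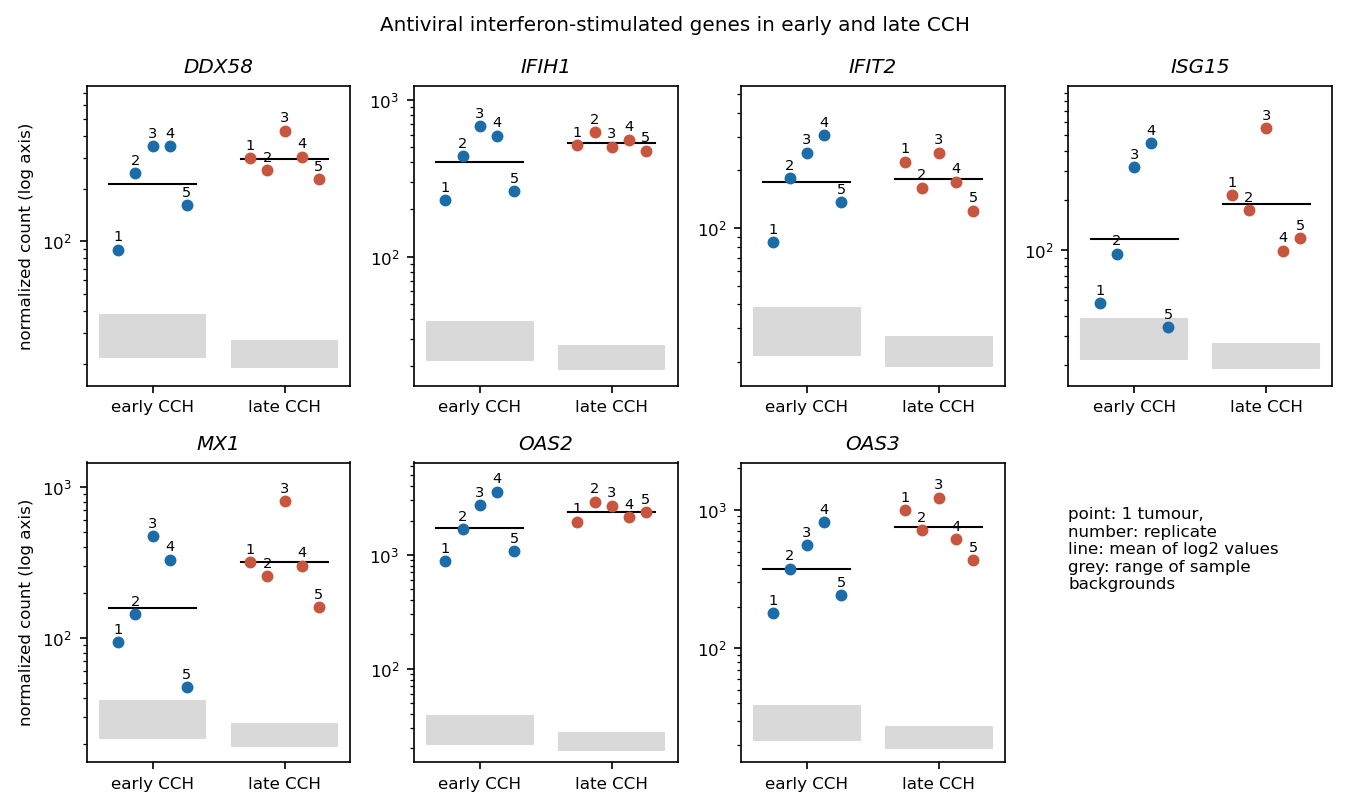
Normalized counts (vertical log axis) of the 7 antiviral genes in 5 early (blue) and 5 late (red) CCH tumours, with 1 point per tumour labelled by its replicate number, a line at the mean of the log2 values and a grey band for the range of sample backgrounds of that stage. Early and late points overlap in every panel, early 3 and early 4 lie above the other early tumours, and ISG15 of early 5 (34.1) lies within the band.

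The cytoplasmic RNA sensors did not pass the test. DDX58, which recognises short RNA with a terminal triphosphate, measured 89.9, 244, 351, 349 and 161 normalized counts in early 1 to early 5 and 299, 254, 427, 305 and 226 in late 1 to late 5. Early 1 and early 5 lay below every late tumour, while early 2, early 3 and early 4 lay within the late range. The log2 fold change of DDX58, early minus late, was -0.47 (SE 0.38, 95% confidence interval -1.30 to 0.36, limma BH adjusted p = 0.351).

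IFIH1, which recognises long double-stranded RNA, measured 229, 439, 681, 591 and 261 normalized counts in early 1 to early 5 and 513, 621.5, 504, 556 and 475 in late 1 to late 5. Early 1, early 2 and early 5 lay below every late tumour, whereas early 3 lay above all of them. Its log2 fold change was -0.40 (SE 0.30, 95% confidence interval -1.07 to 0.27, limma BH adjusted p = 0.322). The late tumours held IFIH1 within a 1.31-fold range, compared with 2.98-fold among the early tumours.

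Among the effectors, IFIT2, whose protein binds RNA and limits translation, had the smallest difference between the stage means. It measured 84.6, 181, 248, 306 and 136 normalized counts in early 1 to early 5 and 222, 163, 247, 175 and 123 in late 1 to late 5. The highest values, in early 3 and early 4, and the lowest, in early 1, both belonged to early CCH, so that the early range enclosed the late range. The log2 fold change was -0.05 (SE 0.35, 95% confidence interval -0.83 to 0.73, limma BH adjusted p = 0.919), and it turned positive under geometric mean scaling (0.33), TMM scaling (0.14) and quantile normalization (0.56).

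ISG15 encodes a ubiquitin-like protein that is attached to other proteins. It measured 47.6, 94.99, 318, 446 and 34.1 normalized counts in early 1 to early 5 and 216, 175, 549, 99.4 and 118 in late 1 to late 5. Early 1, early 2 and early 5 lay below every late tumour, early 3 and early 4 lay above 4 of the 5 late tumours, and late 3 was the highest of all. The value of early 5 rested on 18 recovered counts (exact Poisson 95% interval 20.2 to 53.9 normalized counts, covering counting error only) and was 0.964 times the background of that tumour. It was the only value among the 70 of the members that did not exceed the background of its own tumour. The log2 fold change of ISG15 was -0.68 (SE 0.75, 95% confidence interval -2.36 to 0.99, limma BH adjusted p = 0.506). The value was -0.25 without early 5 and -1.16 without early 4, the extremes over omissions of 1 tumour, and 1.46 with DV200 as a covariate.

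MX1, a dynamin-like GTPase that traps viral nucleocapsids, measured 94.2, 144, 474, 329 and 47.4 normalized counts in early 1 to early 5 and 319, 257, 806, 301 and 159.9 in late 1 to late 5. The arrangement resembled that of ISG15, with early 1, early 2 and early 5 below every late tumour and with late 3 above all other tumours. The log2 fold change was -0.99 (SE 0.63, 95% confidence interval -2.40 to 0.42, limma BH adjusted p = 0.247). It was -0.56 without early 5, -0.65 without late 3 and 0.92 with DV200 as a covariate.

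OAS2 and OAS3 encode oligoadenylate synthases, which respond to double-stranded RNA and activate RNase L. OAS2 measured 880.2, 1686, 2743, 3594 and 1076 normalized counts in early 1 to early 5 and 1952, 2938, 2701, 2128 and 2377 in late 1 to late 5. Early 1, early 2 and early 5 lay below every late tumour and early 4 lay above all of them. Its log2 fold change was -0.46 (SE 0.37, 95% confidence interval -1.27 to 0.35, limma BH adjusted p = 0.346).

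OAS3 measured 179.85, 377, 558, 814 and 243 normalized counts in early 1 to early 5 and 998, 719, 1225, 618 and 432 in late 1 to late 5. No early tumour exceeded all late tumours, and early 1, early 2 and early 5 again lay below all of them. The early mean of 434 ± 257 compared with a late mean of 798 ± 314 (SD, n = 5 each). OAS3 was the member nearest to the threshold, with a log2 fold change of -0.99 (SE 0.43, 95% confidence interval -1.95 to -0.04, limma BH adjusted p = 0.0982, BY adjusted p = 0.709). Without early 4 it passed, at -1.27 (limma BH adjusted p = 0.0351), and with any 1 tumour omitted its log2 fold change stayed between -1.27 and -0.73. It was smaller in size under TMM scaling (-0.80), geometric mean scaling (-0.60) and quantile normalization (-0.49). With DV200 as a covariate it was -0.05 (limma BH adjusted p = 0.958).

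The log2 fold changes of all 7 members were negative, with a median of -0.47, beside a median of -0.18 and a share of 59.9% negative values over all 761 tested genes. Single early tumours moved the members' median, which was -0.22 without early 1, -0.29 without early 5 and -0.73 without early 4. Under geometric mean scaling and quantile normalization the members' median was -0.08, and the median of the panel itself moved from -0.18 to 0.21. The distance between the 2 medians was -0.30 with the deposited scaling and -0.28 with quantile normalization, and the geometric mean and TMM scalings can hardly move it because they shift all genes of a tumour alike. The omission of single tumours did move it, to -0.07 without early 1, -0.08 without early 5 and -0.53 without early 4. The signs of single members also depended on the scaling, because IFIT2 turned positive under geometric mean, TMM and quantile scaling and DDX58 and IFIH1 did so under quantile normalization (0.20 and 0.16). With DV200 as a covariate, 6 of the 7 turned positive, OAS3 being the exception at -0.05. The members' median was then 0.27, and the distance between the medians was 0.44.

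The members varied widely among early tumours. In all 7 genes, early 3 and early 4 were the highest pair of the early group and early 1 and early 5 the lowest pair, with early 2 in the middle. The highest early value of ISG15 was at least 12.6 times the lowest, a bound set against the background of early 5, where ISG15 did not exceed it. The highest early value was 10.0 times the lowest for MX1, 4.52 times for OAS3, 4.08 times for OAS2, 3.90 times for DDX58, 3.62 times for IFIT2 and 2.98 times for IFIH1. Among late tumours the corresponding values were 5.53 for ISG15, 5.04 for MX1, 2.84 for OAS3, 1.51 for OAS2, 1.89 for DDX58, 2.01 for IFIT2 and 1.31 for IFIH1. The SD of the log2 values was larger in early than in late CCH in 7 of 7 members, a direction that 62.3% of the tested panel genes shared. The median SD over the members was 0.86 in early and 0.39 in late CCH, beside 0.45 and 0.38 over the panel. No test was made of these spreads.

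**Figure D2:**
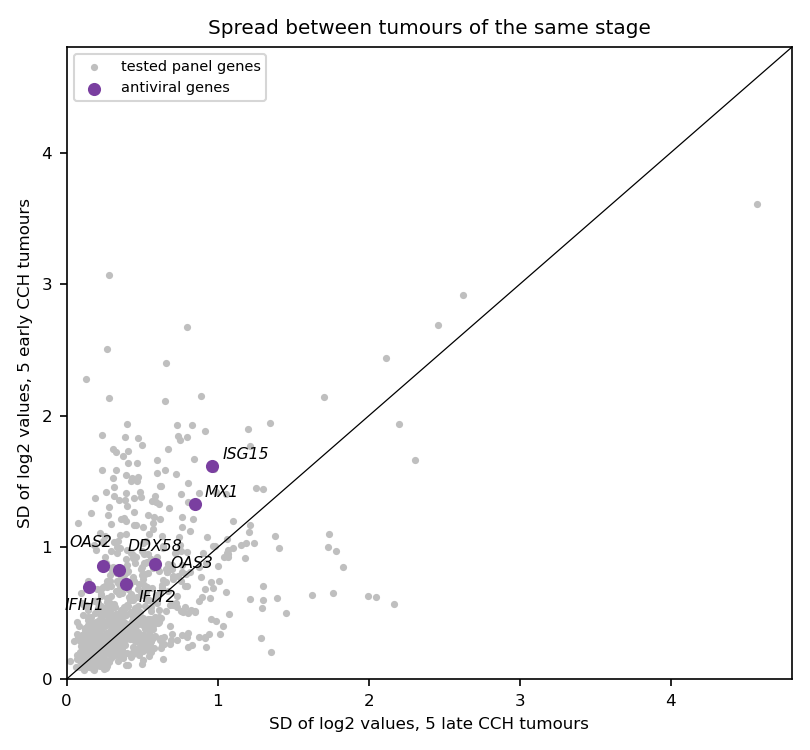
SD of log2 values (log2 of normalized count plus pseudocount) among the 5 late tumours (horizontal axis) and among the 5 early tumours (vertical axis), with 1 grey point per tested panel gene and the 7 antiviral genes in purple. All 7 lie above the diagonal line of equal SD, ISG15 furthest out (1.62 in early and 0.96 in late CCH) followed by MX1 (1.33 and 0.85).

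ISG15 and MX1 had the largest spread within stages among the 7 members. The within-stage SD, pooled over both stages, was at percentile 95.4 of the tested panel genes for ISG15 and at percentile 90.5 for MX1. The other 5 members lay between percentile 56.1 (IFIH1) and percentile 74.4 (OAS3). In late CCH, late 3 lay far above the other tumours for ISG15 (549 against 99.4 to 216) and MX1 (806 against 159.9 to 319). Late 3 was the highest late tumour in 5 of the 7 members, the exceptions being IFIH1 and OAS2, for which late 2 was highest. Late 5 was the lowest late tumour in 5 of the 7 members, the exceptions being OAS2 (late 1) and ISG15 (late 4).

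The members varied together over the 10 tumours, and most plainly among the early ones, since the order of the late tumours was not shared by all members. In late 3, for example, the deviation from the late mean ran from -0.08 for IFIH1 to 1.53 for ISG15 on the log2 scale. After the mean of its stage had been subtracted from each log2 value, the 21 pairs of members had Pearson correlations of 0.75 to 0.98 over the 10 tumours, with a median of 0.84, beside a median of 0.07 over all pairs of tested genes. After geometric mean scaling the member pairs ranged from 0.68 to 0.97, with a median of 0.82. These correlations are descriptions. All genes of a tumour share its housekeeping factor, its library depth and its mixture of cells, and the deviations of early 1, early 3, early 4 and early 5 were, on average over the members, larger in size than those of any late tumour. Averaged over the 7 members, the deviation from the stage mean on the log2 scale was -1.02 in early 1, -0.01 in early 2, 0.89 in early 3, 1.03 in early 4 and -0.88 in early 5. In late CCH it was 0.08 in late 1, -0.05 in late 2, 0.67 in late 3, -0.20 in late 4 and -0.51 in late 5.

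**Figure D3:**
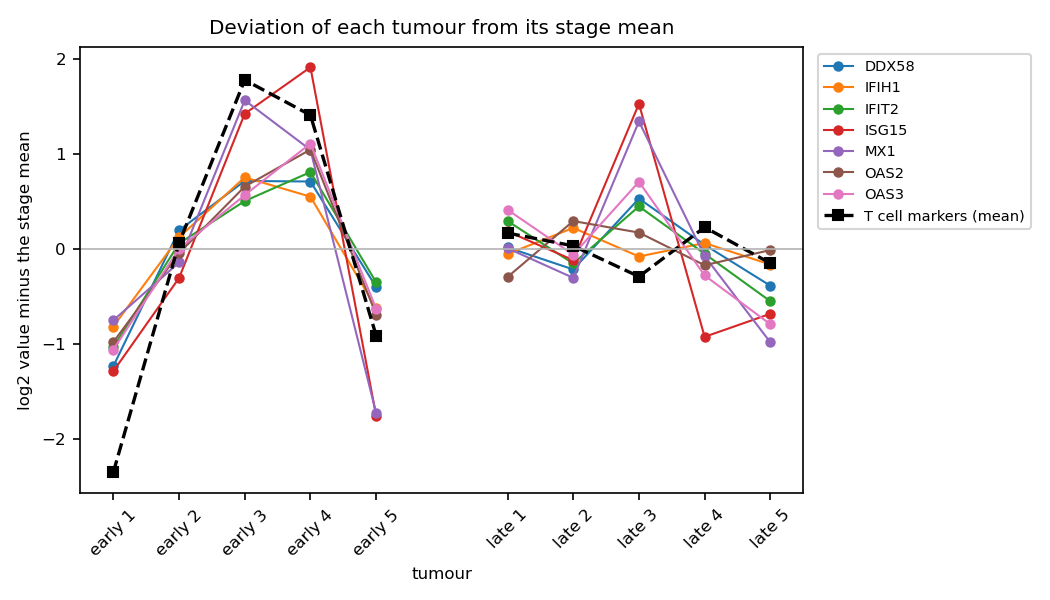
Deviation of each tumour's log2 value from the mean of its stage (vertical axis) for 5 early and 5 late tumours (horizontal axis), with 1 coloured line per antiviral gene and a dashed black line for the mean over 8 T cell markers. In early CCH all lines run low in early 1 and early 5 and high in early 3 and early 4, whereas in late 3 the T cell line (-0.29) lies below 0 and the mean of the antiviral genes (0.67) above it.

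The T cell markers had the same highest and lowest pairs among early tumours. All 8 listed markers (CD3D, CD3E, CD3G, CD2, CD5, CD6, TRAC and TRBC) were on the panel and all 8 were higher in late CCH past the BH threshold. Their summed normalized count was 548 in early 1, 2797 in early 2, 10189 in early 3, 7968 in early 4 and 1262 in early 5, and 15516 to 24972 in late CCH. Early 1 and early 5 were thus the lowest and early 3 and early 4 the highest early tumours for these markers as well as for the antiviral genes. In late CCH the orders differed, as late 3 had the lowest T cell sum (15516) and the highest mean of the antiviral genes. The part of T cell content in the values of the antiviral genes was not tested.

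B cell and plasma cell markers were highest in the same late tumour as most antiviral genes. All 7 listed markers were on the panel, 6 were higher in late CCH past the BH threshold, and their sum was 14951 in late 3 and lowest, at 3209, in late 5. In early CCH the sum was 441 in early 1, 757 in early 2, 1909 in early 3, 1516 in early 4 and 390.3 in early 5, so that early 3 and early 4 were again the highest and early 1 and early 5 the lowest. Of the cytotoxic lymphocyte markers, 4 of the 5 on the panel were higher in late CCH, with sums of 635 to 6187 in early and 7664 to 22247 in late CCH, and late 3 was the lowest late tumour. By the sum, their early order differed from that of the antiviral genes, as early 2 (2916) exceeded early 4 (2743). GZMB (1589 in early 2 against 461 in early 4) and PRF1 (190 against 175) were higher in early 2. GZMA, GZMK and NKG7 were higher in early 4. By the mean log2 deviation, the cytotoxic list was highest in early 3 and early 4 and lowest in early 1 and early 5. These were the same pairs as for the antiviral genes. Macrophage sums were lowest among early tumours in early 3 (3286) and early 4 (2911), as were fibroblast sums (4217 and 8325), opposite to the antiviral genes. By the mean log2 deviation the fibroblast list was also lowest in early 3 (-0.97) and early 4 (-0.70). The macrophage list was by that measure lowest in early 4 (-0.61) and early 1 (-0.24), so that its opposite order held for the sum only. The Langerhans cell origin that CCH is known for, which the labels do not name, was set against 11 Langerhans and dendritic cell markers on the panel. CD207 (langerin), the defining protein of Langerhans cells, measured 18.0 to 38.6 normalized counts in early and 7.56 to 22.3 in late CCH and exceeded background in 2 of 10 tumours, and CD1B exceeded it in none. EPCAM, CDH1, FLT3, ITGAX and FCER1A exceeded background in all 10 tumours, although these genes are less specific to Langerhans cells. The CCH label itself came from histology. The sum of the 11 markers was 2232 to 6502 in early and 2571 to 4973 in late CCH. Among early tumours this sum was highest in early 4 and early 3 (6115), as for the antiviral genes, but lowest in early 2, unlike them. Among late tumours it was highest in late 3 and lowest in late 5, as for most antiviral genes. The part of B cells, cytotoxic cells, macrophages, fibroblasts and Langerhans cells in the antiviral values was not tested.

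With the deposited scaling, the panel genes whose stage-centred pattern was most like the mean of the 7 members were IL6ST, EPSTI1, CD5, CD247 and MAP4K2, among the other 754 tested genes, for which the median r was 0.18. IL6ST, the signal-transducing receptor chain shared by cytokines of the IL-6 family, had a Pearson r of 0.96 and a Spearman rho of 0.89 over 10 tumours, and an r of 0.92 without early 1 and early 4, the tumours farthest from the median. EPSTI1 had values of 0.93, 0.89 and 0.88 in the same order, and CD5, a T cell surface protein, had 0.92, 0.89 and 0.85. CD247, the zeta chain of the T cell receptor complex, had 0.92, 0.85 and 0.85, and MAP4K2, a kinase, had 0.92, 0.99 and 0.90. After geometric mean scaling r was 0.91 for IL6ST, 0.91 for EPSTI1, 0.89 for CD5, 0.89 for CD247 and 0.69 for MAP4K2. The order of likeness depended on the scaling, since the highest r was then 0.92, of a gene outside these 5, and the median over the other 754 genes was -0.08. The stage differences of these genes were unlike each other, since CD5 (log2 fold change -2.94, limma BH adjusted p = 0.00272), CD247 (-2.29, adjusted p = 0.00406) and MAP4K2 (-0.73, adjusted p = 0.0116) were higher in late CCH, whereas IL6ST (-0.27, adjusted p = 0.359) and EPSTI1 (-0.47, adjusted p = 0.403) did not pass.

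The rest of the interferon pathway was read from 8 lists naming 87 genes, of which 46 were on the panel and tested. Of these 46, 22 passed the BH threshold, 20 higher in late and 2 higher in early CCH, with a median log2 fold change of -0.66. Over the panel, 35.7% of genes passed, 27.3% higher in late and 8.41% higher in early CCH. With DV200 as a covariate 1 of the 22 called pathway genes, GBP5, remained past the BH threshold, and over the panel the number past it was 45 of 761 (5.91%) in place of 272. Whether the antiviral genes and the other pathway genes differed from each other was not tested. The 20 to 2 split became 14 to 8 under geometric mean scaling, 17 to 6 under TMM scaling and 11 to 6 under quantile normalization. Of the 22 genes, 13 passed in the same direction under all of these scalings, and 11 of those 13 were higher in late CCH. When single tumours were omitted in turn, 17 of the 22 passed in all 10 cases, and the exceptions were TRAF3 (9 of 10), IFNAR2 (4 of 10), IRF2 (3 of 10), IFNA7 (2 of 10) and CXCL11 (2 of 10).

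**Figure D4:**
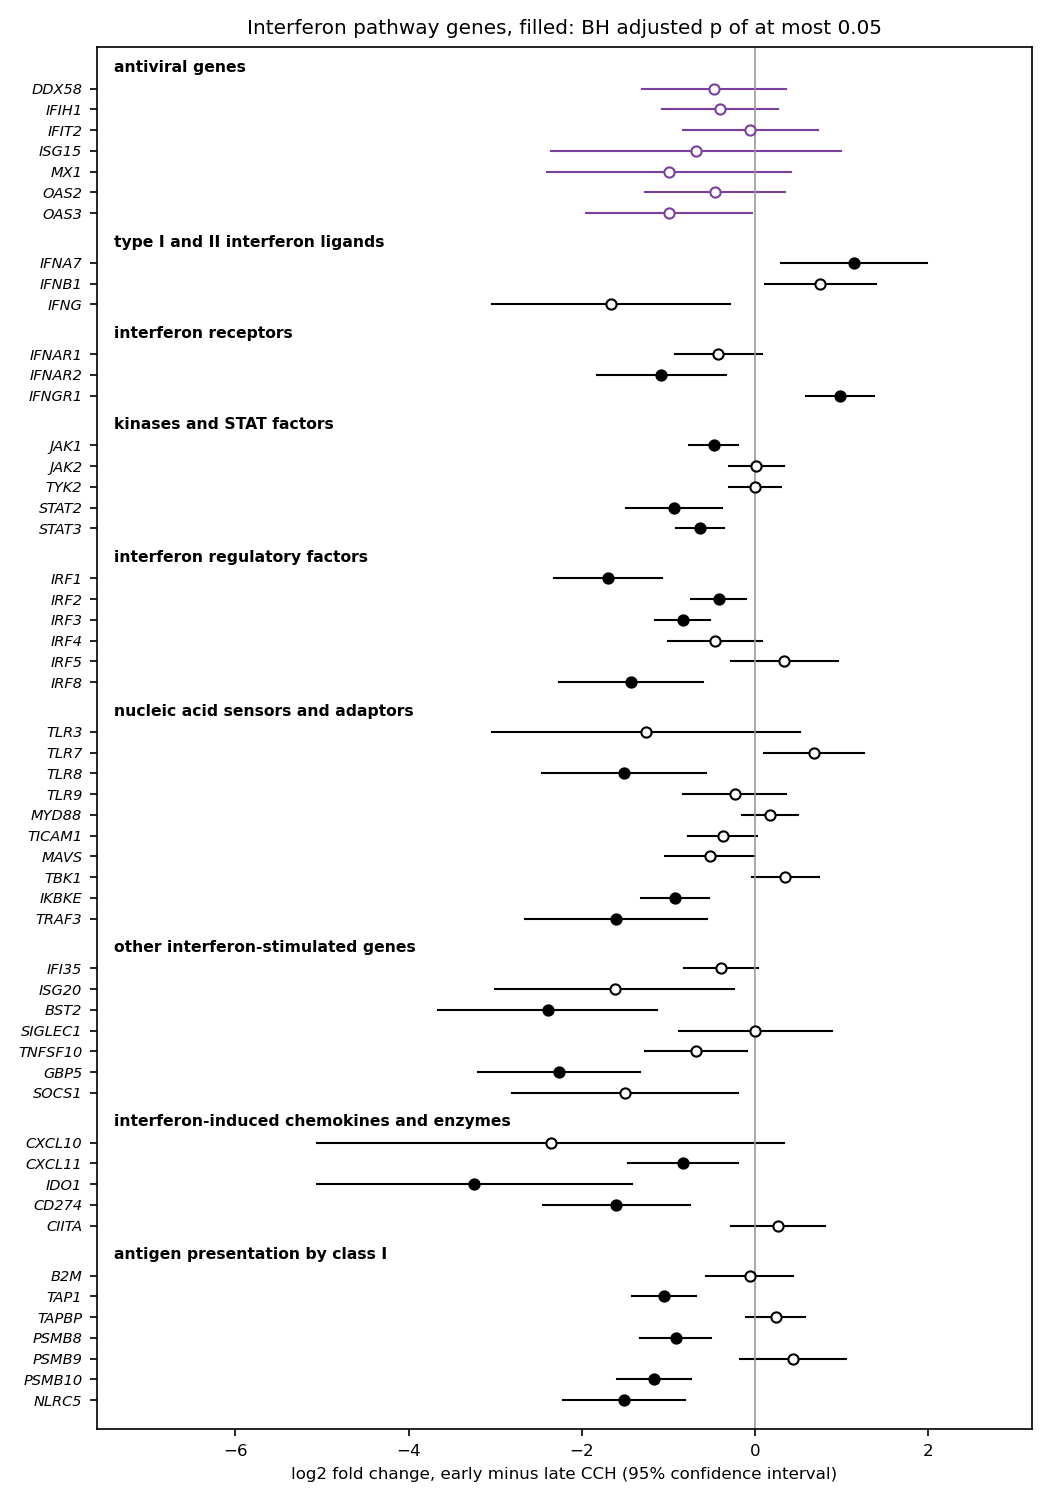
Log2 fold change, early minus late CCH (horizontal axis), with 95% confidence interval for the 7 antiviral genes (purple) and 46 other interferon pathway genes (black) grouped by list, filled where the BH adjusted p was at most 0.05. All 7 antiviral points are open, and 20 of the 22 filled points lie left of 0, the exceptions being IFNA7 and IFNGR1.

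Of the 3 listed interferon ligands on the panel, IFNA7, a type I interferon, was higher in early CCH, with 171 ± 90.6 normalized counts (SD, n = 5) against 68.1 ± 13.0 (SD, n = 5) and a log2 fold change of 1.14 (limma BH adjusted p = 0.0383). IFNA7 belongs to a family of closely similar genes, and which copies its probe captures was not tested. IFNB1 exceeded the background of its tumour in 2 of 10 tumours, so that its log2 fold change of 0.76 (adjusted p = 0.0650) rested mostly on values at background. IFNG, the type II interferon of T cells and natural killer cells, had a log2 fold change of -1.66 (adjusted p = 0.0599). IL29L, a type III (lambda) interferon that was not on the list and was added after its values were seen, is not part of the counts above. It measured 48.7, 49.2, 64.2, 104 and 73.9 normalized counts in early 1 to early 5 and 28.5, 47.5, 32.4, 28.8 and 25.9 in late 1 to late 5, each above the background of its tumour, with no overlap between the stages. Its log2 fold change of 1.011 (limma BH adjusted p = 0.0134) passed under all scalings and in 10 of 10 omissions of a single tumour, and it was 0.70 (adjusted p = 0.0244) with values floored at background and 1.19 (adjusted p = 0.114) with DV200 as a covariate. For the ligands the background in normalized counts, which was higher in early CCH, moved in the same direction as IFNA7, IFNB1 and IL29L, and its part in their values was not tested.

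The 2 called receptor chains differed in opposite directions. IFNAR2, a chain of the type I interferon receptor, was higher in late CCH (log2 fold change -1.08, limma BH adjusted p = 0.0303), a call that was lost under geometric mean scaling and quantile normalization. IFNGR1, the ligand-binding chain of the interferon gamma receptor, was higher in early CCH under all scalings, at 3936 ± 574 (SD, n = 5) against 2012 ± 432 (SD, n = 5) normalized counts (log2 fold change 0.98, adjusted p = 0.00325). IFNAR1 did not pass (-0.42, adjusted p = 0.169).

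Among 5 kinases and STAT factors, STAT2, STAT3 and JAK1 were higher in late CCH and JAK2 and TYK2 did not pass. STAT2, a part of the factor that binds the promoters of antiviral genes, measured 813 ± 300.2 and 1469 ± 101 (SD, n = 5 each) in early and late tumours, with a log2 fold change of -0.94 (limma BH adjusted p = 0.0164). Its values did not overlap between the stages. STAT3 had a log2 fold change of -0.63 (adjusted p = 0.00438) and JAK1 of -0.48 (adjusted p = 0.0160). None of these 3 genes kept its call under all scalings.

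Of 6 interferon regulatory factors, IRF1, IRF2, IRF3 and IRF8 were higher in late CCH. IRF1, induced strongly by interferon gamma, measured 1038 ± 413 in early and 3179 ± 485 in late CCH (SD, n = 5 each), with a log2 fold change of -1.70 (limma BH adjusted p = 0.00224) and a BY adjusted p of 0.0161. IRF8, a factor of myeloid and B cells, had a log2 fold change of -1.43 (BH adjusted p = 0.0150), IRF3 -0.83 (adjusted p = 0.00250) and IRF2 -0.42 (adjusted p = 0.0422). IRF1 and IRF8 passed under all scalings, whereas IRF2 and IRF3 did not, and the log2 fold change of IRF2 was 0.00 under quantile normalization.

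Beyond DDX58 and IFIH1, 10 other nucleic acid sensors and adaptors were tested. TLR8, an endosomal sensor of single-stranded RNA (log2 fold change -1.51, limma BH adjusted p = 0.0200), the kinase IKBKE (-0.92, adjusted p = 0.00406) and the adaptor TRAF3 (-1.61, adjusted p = 0.0241) were higher in late CCH, and IKBKE and TRAF3 passed under all scalings. MAVS, the adaptor through which DDX58 and IFIH1 signal, did not pass (-0.52, adjusted p = 0.113).

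Of 7 other interferon-stimulated genes on the panel, BST2 and GBP5 were higher in late CCH under all scalings. BST2 (tetherin), which holds budding virus at the cell surface, measured 493 ± 385 in early and 1935 ± 432 in late CCH (SD, n = 5 each), with a log2 fold change of -2.40 (limma BH adjusted p = 0.0105). GBP5, an interferon gamma-induced GTPase, measured 317 ± 184 and 1293 ± 161 (SD, n = 5 each), with a log2 fold change of -2.26 (adjusted p = 0.00342). IFI35 (-0.39), ISG20 (-1.62), SIGLEC1 (0.01), TNFSF10 (-0.68) and SOCS1 (-1.50) did not pass.

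Of 5 interferon-induced chemokines and enzymes, IDO1, which breaks down tryptophan (log2 fold change -3.24, limma BH adjusted p = 0.0129), CD274, the ligand of PD-1 (-1.60, adjusted p = 0.0106), and CXCL11 (-0.83, adjusted p = 0.0460) were higher in late CCH, CXCL11 not under all scalings. CXCL10 (-2.36, adjusted p = 0.156) did not pass although its stages did not overlap. Of 7 genes of antigen presentation by class I, 4 were higher in late CCH. They were the peptide transporter TAP1 (-1.05, adjusted p = 0.00195), the immunoproteasome subunits PSMB10 (-1.17, adjusted p = 0.00224) and PSMB8 (-0.92, adjusted p = 0.00489), and the class I transactivator NLRC5 (-1.51, adjusted p = 0.00549). PSMB8 alone of these 4 lost its call under another scaling. B2M (-0.06), TAPBP (0.24) and PSMB9 (0.44) did not pass.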

How the data were processed

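Total RNA of 10 FFPE tumours (5 per stage, 1 per dog) was hybridised to the nCounter Canine IO Panel. The authors normalized the barcode counts to positive controls and then to housekeeping genes, and the deposited values of 800 genes are this normalized signal (linear, termed normalized counts), beside 14 control probes. Gene values were whole multiples of 1 step per sample, within a tolerance of 0.0051 for at least 99.4% of genes, and dividing by the step gave recovered counts (484696 to 1253083 per sample), used for depth, background and counting intervals. Background was the mean plus 2 SD of the 8 negative probes times the step. Genes with a mean of at least 20 were tested (761 genes) with limma 3.58.1 in R 4.3.3 (lmFit, eBayes with trend) on log2(normalized count + 1), with late CCH as baseline and no covariate. This scale understates changes of low genes. Calls used a BH adjusted p of at most 0.05, or the study's BY adjusted p of at most 0.05 with 2-fold change. With 5 tumours per stage, the precision is set by the spread between dogs.

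The members, the 8 pathway lists and the 10 cell type marker lists were chosen with earlier results of these data known. Named genes are the members, the called genes of each pathway list, and the 5 most similar panel genes. Uncalled pathway genes named beside them, IL29L, IL10, CD14, IRF4 and the single cell type markers were chosen after their values were seen. Alternatives covered pseudocount, filter, scaling, variance model, DV200, replicate block, background floor and omission of each tumour. One pathway gene is not reported here. No sequence or coordinate is given, as the panel was designed on another assembly. Python 3.11.15, scipy 1.17.1 and matplotlib 3.10.9 were used.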

Additional observations from a re-analysis of the deposited data

Results flagged for a closer look

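In 4 of the 66 groups of 5 tumours checked (6.06%), 1 tumour lay far from the other 4. Chance marks about 1 in 20 independent groups, and these groups share tumours, so that they are not independent. ISG15 in late 3 measured 549 normalized counts, against 99.4 to 216 in the other late tumours, a gap of 0.741 of the whole range. MX1 in the same tumour measured 806, against 159.9 to 319, a gap of 0.754 of the range. The log2 fold change without late 3 was -0.30 for ISG15 and -0.65 for MX1, and neither passed the threshold with or without it. IKBKE in early 2 measured 1357, against 763 to 885 in the other early tumours, a gap of 0.795 of the range. TRAF3 in early 1 measured 68.8, against 325 to 414 in the other early tumours, a gap of 0.742 of the range.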

How the results depend on the processing

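Over 19 alternative settings, 133 member results were computed and 1 passed the BH threshold, OAS3 without early 4 (-1.27), so that 1 antiviral gene passed there. With 1 tumour left out at a time, 0 to 1 members passed BH, 0 passed BY with 2-fold, their median log2 fold change was -0.73 to -0.22, and 18 to 22 pathway genes passed. The log2 fold change ranged from -0.65 to -0.16 for DDX58, -0.59 to -0.20 for IFIH1, -0.26 to 0.20 for IFIT2, -1.16 to -0.25 for ISG15, -1.38 to -0.56 for MX1, -0.73 to -0.22 for OAS2 and -1.27 to -0.73 for OAS3. Signs turned under quantile normalization for DDX58 (0.20), IFIH1 (0.16) and IFIT2 (0.56). IFIT2 also turned under geometric mean (0.33) and TMM (0.14) scaling and without early 1 (0.20), early 5 (0.03), late 1 (0.02) or late 3 (0.06). With DV200 as a covariate the values were 0.13 for DDX58, 0.17 for IFIH1, 0.52 for IFIT2, 1.46 for ISG15, 0.92 for MX1, 0.27 for OAS2 and -0.05 for OAS3. In that fit 0 members passed, and 1 pathway gene passed. The cause of these shifts was not tested. Same-numbered tumours correlated between -0.20 and 0.16, so that the numbers do not pair the samples. With the replicate block, 0 members passed BH (lowest adjusted p 0.0636, MX1) and 17 pathway genes did. Count-based tests of recovered counts and a search for promoter motifs were planned and not run, because the control rows are on another scale and no promoter sequences were at hand. ISG15 in early 5 lay at the background of that tumour.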

Other observations

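The marker lists of other cell types are given beside the panel shares of 27.3% higher in late and 8.41% higher in early CCH, and no list was tested against another. Macrophage markers summed to 2911 to 7523 normalized counts in early and 4163 to 8026 in late CCH, with 2 of 7 genes higher in late CCH past the BH threshold (limma). Of 10 tested Langerhans and dendritic cell genes, CD83 and CCR7 were higher in late and FLT3 and FCER1A higher in early CCH. None of 3 plasmacytoid dendritic cell, 6 neutrophil, 2 keratinocyte and 4 fibroblast genes passed, and of 3 endothelial genes CDH5 was higher in late CCH. Neutrophil sums ranged from 1316 to 37920 in early and from 489 to 35611 in late CCH, and fibroblast sums from 4217 to 36856 and from 9341 to 30812. Keratinocyte sums ranged from 322 to 5617 in early and from 388 to 3529 in late CCH.

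The genes whose stage-centred pattern ran most opposite to the mean of the antiviral genes over the 10 tumours were IL10, with a Pearson r of -0.82 and a Spearman rho of -0.75, and CD14, with -0.80 and -0.67. IRF4, an interferon regulatory factor, was next, with -0.80 and -0.78. Without early 1 and early 4, r was -0.86 for IL10, -0.69 for CD14 and -0.58 for IRF4. IL10, a cytokine that restrains inflammation, was higher in early CCH (log2 fold change 1.41, limma BH adjusted p = 0.02998), whereas CD14 (-0.35, adjusted p = 0.694) and IRF4 (-0.46, adjusted p = 0.163) did not pass.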
